A study of Mus musculus with 6 samples.

Results

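Cerebellar granule cell genes are followed here through 6 RNA-seq libraries of mouse brain. The 9 genes were Gabra6, Cbln1, Cbln3, Barhl1, Barhl2, Atoh1, Neurod1, Fat2 and Etv1. They were chosen by symbol from textbook knowledge of the granule cell lineage, with earlier results of these data known. All 9 were found among the 31276 gene symbols of the count table, and 8 of them were among the 16592 genes that passed the filter on low counts. Atoh1 did not pass it. The study compared brains of C57BL/6 mice at postnatal day 14, in 3 samples labelled wild-type (WT 1 to 3) and 3 samples labelled as a PRMT5 knockout driven by Olig2-Cre (KO 1 to 3). PRMT5 is an arginine methyltransferase, and Olig2-Cre acts in the oligodendrocyte lineage and in other cells that have expressed Olig2, so the gene is intact in part of the tissue. The labels do not say whether WT animals carried Cre or floxed alleles, whether each sample is a separate animal, or how the brains were cut, so the tests measure the spread between these samples.

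Granule cells are the small excitatory neurons of the cerebellum and the most numerous neurons of the brain. Their precursors arise from the rhombic lip under the proneural factor Atoh1, divide in the external granule layer in response to Sonic hedgehog released by Purkinje cells, and then migrate inward and mature during the first postnatal weeks. Barhl1, Barhl2 and Neurod1 are transcription factors of precursor and newly formed stages. Gabra6, Cbln1, Cbln3, Fat2 and Etv1 belong to the maturing and mature cell, where they serve inhibition, parallel fibre synapses and the timing of late gene expression.

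Gabra6, Cbln3 and Fat2 were nearly silent in 3 of the 6 libraries, and their promoters are shown because these genes carry the sharpest contrast between libraries. Each is a window of 300 bases around a RefSeq transcription start on build GRCm38.p6, read 5′ to 3′ on the minus strand. Gabra6 lies at chr11:42321023-42321322, Cbln3 at chr14:55884207-55884506 and Fat2 at chr11:55312208-55312507, inside the gene's span in the GENCODE annotation. Capitals mark matches on either strand to CANNTG, the E-box bound by bHLH factors such as Atoh1 and Neurod1, and to TTGGC, part of the site bound by nuclear factor I proteins.
Gabra6: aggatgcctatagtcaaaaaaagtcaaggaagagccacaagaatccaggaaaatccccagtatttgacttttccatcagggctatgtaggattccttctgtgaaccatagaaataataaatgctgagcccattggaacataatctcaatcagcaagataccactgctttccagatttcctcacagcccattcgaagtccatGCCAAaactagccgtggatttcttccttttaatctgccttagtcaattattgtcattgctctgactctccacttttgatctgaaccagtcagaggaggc
Cbln3: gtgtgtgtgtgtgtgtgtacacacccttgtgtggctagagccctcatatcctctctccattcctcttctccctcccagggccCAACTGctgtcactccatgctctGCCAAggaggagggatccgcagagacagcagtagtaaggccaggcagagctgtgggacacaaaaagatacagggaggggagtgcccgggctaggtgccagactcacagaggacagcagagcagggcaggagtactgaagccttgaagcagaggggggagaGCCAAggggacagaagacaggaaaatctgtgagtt
Fat2: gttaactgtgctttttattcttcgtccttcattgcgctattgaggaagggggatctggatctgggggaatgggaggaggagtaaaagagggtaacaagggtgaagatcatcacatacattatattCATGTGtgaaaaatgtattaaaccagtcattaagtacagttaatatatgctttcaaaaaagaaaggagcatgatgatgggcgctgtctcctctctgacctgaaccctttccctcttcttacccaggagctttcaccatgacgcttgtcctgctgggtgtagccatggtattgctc
The Gabra6 window held 0 matches to CANNTG and 1 to TTGGC, the Cbln3 window held 1 and 2, and the Fat2 window held 1 and 0. The GC content was 42.0% for Gabra6, 57% for Cbln3 and 43.67% for Fat2. Of the 9 genes, 8 had windows in the RefSeq table, 10 windows in all because Barhl1 and Etv1 have 2 each. CANNTG stood in 7 of the 10, against 72.31% of all 32851 promoter windows of this length. TTGGC stood in 5 of the 10, against 46.71% of all windows. The E-box CAGCTG stood in 2 of the 10, both of Barhl1 (16.3% of all windows), CAGATG in 1 (17.15%), and the ETS motif CGGAAG in 0 (16.85%). CAGCTG and CAGATG are also matches to CANNTG. These are letter matches in short windows and no measure of binding.

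The libraries differed in markers of brain regions within each genotype. Total counts ran from 15089140 to 16872925. Prmt5 stood at 90.76, 90.36 and 91.81 CPM (read counts scaled to a common library total with TMM factors) in WT 1, 2 and 3. In KO 1, 2 and 3 it stood at 68.23, 68.36 and 81.57 CPM. Pcp2, a Purkinje cell gene and none of the 9, stood at 59.84, 2.97 and 2.89 CPM in WT 1, 2 and 3 and at 66.04, 3.02 and 39.32 CPM in KO 1, 2 and 3. The libraries WT 1, KO 1 and KO 3 therefore carried Purkinje cell transcripts well above the level of WT 2, WT 3 and KO 2. The former are called the high-Pcp2 libraries below and the latter the low-Pcp2 libraries, a split that is not a group of the study; the 2 sets are not tested against each other, and the split enters the genotype fits only as alternatives. In bulk RNA, fewer cells of a type and less RNA per cell cannot be told apart.

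Gabra6 encodes the alpha6 subunit of the GABA-A receptor, which is a hallmark of mature granule cells. It lies at chr11:42306437-42321072 (mm10, minus strand) with 9 exon blocks and 2489 bp of exonic sequence. Its counts were 1022, 0 and 0 in WT 1, 2 and 3 and 1316, 0 and 348 in KO 1, 2 and 3, which is 63.84, 0 and 0 CPM against 80.03, 0 and 22.11 CPM. No Gabra6 read was counted in any of the 3 low-Pcp2 libraries, where 3 counts, the limit that a count of 0 allows, would be 0.1805 to 0.2028 CPM. Set against that limit per library, Gabra6 in WT 1 stood at 314.9 times the limit of WT 2 and 353.7 times that of WT 3. It stood at 423.4 times the limit of KO 2 in KO 1 and at 117.0 times in KO 3. Counting error in the higher library is left out of these multiples. Libraries with the same genotype label thus lay further apart in Gabra6 than the group means did.

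Cbln3, a cerebellin that assembles with Cbln1, lies at chr14:55878913-55884392 on the minus strand and has 4866 bp of exonic sequence. It was counted 1530, 2 and 12 times in WT and 1390, 12 and 463 times in KO, or 95.57, 0.1352 and 0.722 CPM against 84.53, 0.7561 and 29.41 CPM. The low-Pcp2 libraries averaged 0.5377 CPM, which is 0.5627% of the level in WT 1. Fat2, an atypical cadherin of granule cells and their parallel fibres, spans 85.956 kb at chr11:55250609-55336564 on the minus strand, with 24 exon blocks and 14528 bp of exonic sequence. Its counts were 1330, 0 and 4 in WT and 1278, 2 and 248 in KO, or 83.08, 0 and 0.2407 CPM against 77.71, 0.126 and 15.75 CPM. The low-Pcp2 mean of Fat2 was 0.1222 CPM, or 0.1471% of WT 1. For both genes WT 1 and KO 1 were high, KO 3 lay between, and WT 2, WT 3 and KO 2 were near 0, so the genotype groups overlapped.

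**Figure D1:**
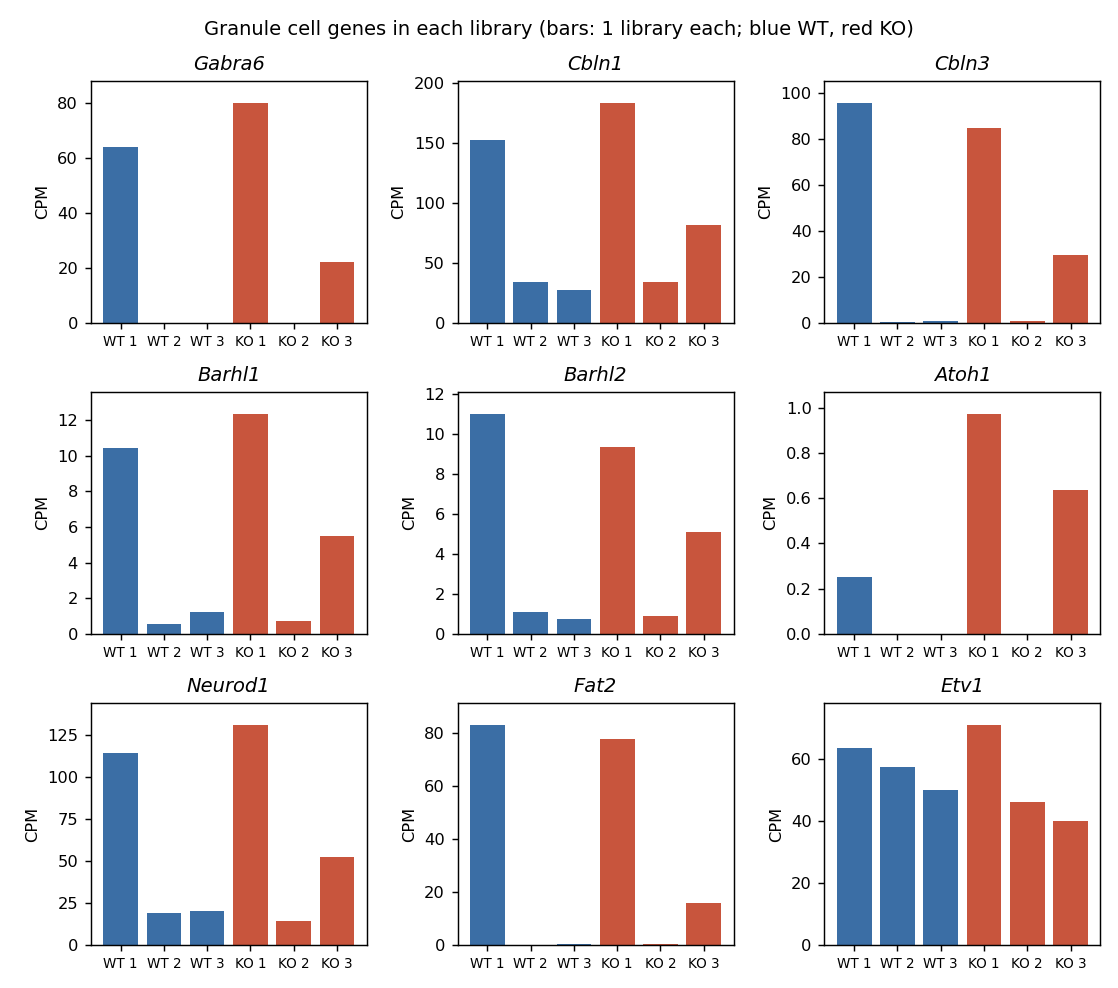
CPM of each of the 9 granule cell genes in each library, with 1 bar per library, WT in blue and KO in red. Gabra6, Cbln3 and Fat2 drop to or near 0 in WT 2, WT 3 and KO 2, while Etv1 stays between 40.15 and 71.03 CPM in all 6 libraries.

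Cbln1 and Neurod1 were also highest in KO 1 and WT 1 and intermediate in KO 3, but a clear level remained in the other libraries. Cbln1, a secreted organiser of parallel fibre synapses that binds neurexins, lies at chr8:87468405-87472609 and stood at 152.5, 33.66 and 27.32 CPM in WT and 183.4, 33.52 and 81.13 CPM in KO. Its low-Pcp2 mean of 31.5 CPM was 20.66% of the level in WT 1. Neurod1, a bHLH factor of differentiating neurons that is also used outside the cerebellum, lies at chr2:79452521-79456751. It stood at 113.9, 18.65 and 20.4 CPM in WT and 130.7, 14.18 and 52.03 CPM in KO, and its low-Pcp2 mean was 15.58% of WT 1. In both genes the highest WT library exceeded the lowest by 5.582-fold (Cbln1) and 6.105-fold (Neurod1), and in KO the ratios were 5.472 and 9.218. The GENCODE annotation places 201 exonic bp of Neurod1, or 7.365%, within exons of Cerkl on the same strand. How reads in that stretch were counted was not checked.

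The homeobox genes Barhl1 and Barhl2, which act in granule cell precursors and in other rhombic lip derivatives, were lower in abundance. Barhl1 stood at 10.43, 0.5407 and 1.203 CPM in WT and 12.34, 0.6931 and 5.463 CPM in KO. Barhl2 stood at 10.99, 1.081 and 0.722 CPM in WT and 9.365, 0.8821 and 5.082 CPM in KO. Their low-Pcp2 means were 7.788% and 8.142% of WT 1, between those of Cbln3 and Neurod1.

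Atoh1 and Etv1 were the exceptions at either end. Atoh1, the proneural gene that sets the granule cell lineage apart and is switched off as precursors leave the cycle, had 4, 0 and 0 counts in WT and 16, 0 and 10 in KO. It was detected in the same 3 libraries as Gabra6. Set against 3 counts in KO 2, it stood at 5.147 times that limit in KO 1 and 3.361 times in KO 3. In WT 1 it stood at only 1.232 times the limit of WT 2 and 1.384 times that of WT 3. Counting error in the higher library, large at so few counts, is left out of these multiples. Etv1, an ETS factor of the maturing granule cell that cortical layer 5 neurons also use, stood at 63.53, 57.65 and 50.18 CPM in WT and 71.03, 46.18 and 40.15 CPM in KO. Its low-Pcp2 mean was 80.81% of WT 1, and KO 3, a high-Pcp2 library, held the lowest value of all 6.

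Levels of different genes are compared per kilobase of exonic sequence. This length joins all GENCODE exons of a gene and need not match the transcripts present. Before scaling by it, Cbln3 stood above Gabra6 in WT 1, at 95.57 against 63.84 CPM. In WT 1 the order was Cbln1 (50.21 CPM per kb), Neurod1 (41.73), Gabra6 (25.65), Cbln3 (19.64), Fat2 (5.718), Etv1 (4.778), Barhl2 (4.751), Barhl1 (2.671) and Atoh1 (0.1178). KO 1 kept Cbln1 and Neurod1 at the top, at 60.39 and 47.89 CPM per kb, with Gabra6 at 32.15 and Cbln3 at 17.37. Within gene families, the share of the per-length signal moved with the same libraries. Gabra6 made up 15.67%, 0% and 0% of the 6 GABA-A alpha subunits in WT and 19.33%, 0% and 6.63% in KO. Cbln3 made up 23.12%, 0.1107% and 0.6349% of the 4 cerebellins in WT and 18.45%, 0.622% and 11.99% in KO, while Cbln1 stayed the leading cerebellin share at 38.49% to 64.14%. Fat2 made up 36.85%, 0% and 0.2159% of the 4 FAT cadherins in WT and 35.29%, 0.1037% and 16.06% in KO. Etv1 stayed between 12.52% and 18.7% of the 3 PEA3 factors in every library.

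None of the 8 tested genes was called between KO and WT (edgeR quasi-likelihood test, Benjamini-Hochberg adjusted p under 0.05 over all genes), where 1.20% of all genes tested were called. In this fit none of the 8 passed an unadjusted p of 0.05 either, which 9.67% of all genes did, and DESeq2, which called 1.89% of all genes, called 0 of the 8. Log2 fold changes (KO over WT, with SE) were 0.68 ± 1.51 for Gabra6, 0.48 ± 0.65 for Cbln1, 0.25 ± 1.41 for Cbln3, 0.60 ± 0.94 for Barhl1, 0.26 ± 0.89 for Barhl2, 0.36 ± 0.75 for Neurod1, 0.17 ± 1.51 for Fat2 and -0.12 ± 0.18 for Etv1. The edgeR adjusted p ran from 0.8473 to 0.9791. The group ranges overlapped for all 9 genes, whereas they did not overlap for 16.0% of all genes tested. Exact permutation tests of CPM over the 6 libraries gave two-sided p from 0.4 to 0.9, and 0.1 is the smallest that 3 against 3 can give. The SE of Gabra6, Cbln3 and Fat2 is so wide that a change of several fold in either direction was not detectable in these samples.

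**Figure D2:**
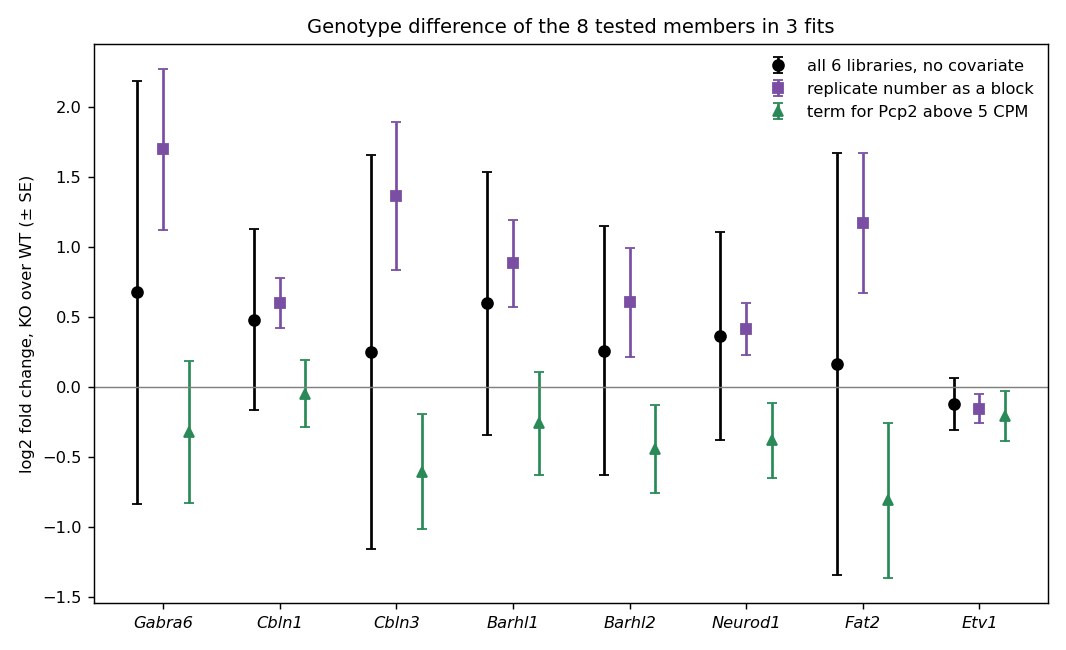
Log2 fold change, KO over WT, of the 8 tested granule cell genes with SE, in the fit without a covariate (black circles), with the replicate number as a block (purple squares) and with a term for Pcp2 above 5 CPM (green triangles). The values without a covariate carry an SE of up to 1.51, and with a term for Pcp2 7 of the 8 turn from positive to negative.

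How the genotype contrast came out depended on how the libraries were matched. Same-numbered samples deviated from their group means together, and with the replicate number as a block edgeR called 3.41% of all genes and none of the 8, with adjusted p from 0.07322 to 0.4989. The block raised the log2 fold change to 1.70 ± 0.57 for Gabra6, 1.37 ± 0.53 for Cbln3 and 1.17 ± 0.50 for Fat2. In this edgeR fit 6 of the 8 genes (all but Barhl2 and Etv1) had an unadjusted p under 0.05, as did 15.9% of all genes. These 6 rose and fell in the same libraries, so they are not separate results. The block left 2 residual degrees of freedom and was chosen on these data, and the labels do not say what the number marks. Replicate 1 was high in Pcp2 in both genotypes, replicate 2 low in both, and replicate 3 low in WT and high in KO. The part of the mismatch in replicate 3 in the raised values was not tested. With a term for libraries above 5 CPM of Pcp2, 1.38% of all genes were called and again none of the 8. All of the 8 had a negative log2 fold change there, from -0.05 for Cbln1 to -0.81 for Fat2. The term treats WT 1, KO 1 and KO 3 alike, although Gabra6 stood at 63.84, 80.03 and 22.11 CPM in them. The part of this difference in the negative values was not tested. The 8 genes had a median log2 fold change of 0.31 without a covariate, beside 0.01 for all genes, of 0.75 with the block and of -0.35 with the Pcp2 term. Among the high-Pcp2 libraries alone, KO 1 and KO 3 against WT 1, 0.942% of all genes were called, and Fat2 was the only one of the 9 past the threshold (log2 fold change -0.84, edgeR adjusted p = 0.037). WT is a single library there, assumed to vary like the KO libraries, so the difference cannot be told apart from that of WT 1 itself. KO 3 was also low for long genes, as given below, and Fat2 is the longest of the 9. Pcp2 stood lower in KO 3 as well, at 39.32 CPM against 59.84 in WT 1 and 66.04 in KO 1. The part of length or of the lower Pcp2 level in this call was not tested. Among the low-Pcp2 libraries alone, KO 2 against WT 2 and WT 3, 7.37% of all genes were called and none of the granule cell genes that entered the fit; Gabra6, Fat2 and Atoh1 were too low to enter it. KO is a single library there, so the genotype cannot be told apart from KO 2 itself.

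Set side by side as single libraries, WT 1 and KO 1 lay within 1.254-fold of each other for 8 of the 9 genes, and KO 3 lay below both for the same 8; the exception was Atoh1. These ratios compare libraries, with intervals for counting error only (95%, exact). KO 1 over WT 1 was 1.254 (1.154 to 1.362) for Gabra6, 1.203 (1.14 to 1.269) for Cbln1 and 0.8844 (0.8219 to 0.9517) for Cbln3, and for Atoh1, on few counts, 3.894 (1.256 to 16.01). The interval lay above 1 for 5 genes, below 1 for 1 gene and held 1 for 3. KO 3 over KO 1 was 0.2763 (0.2448 to 0.3111) for Gabra6, 0.348 (0.3126 to 0.3869) for Cbln3 and 0.2027 (0.1762 to 0.2324) for Fat2. The interval lay below 1 for 8 of the 9 genes, with Atoh1 at 0.6529 (0.2649 to 1.53). Against WT 1, KO 3 was again below 1 for 8 of the 9, and Atoh1 stood at 2.543 (0.7334 to 11.11).

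KO 3 did not hold a fixed fraction of each granule cell gene. After the mean of the low-Pcp2 libraries was subtracted, KO 3 over KO 1 was 0.2015 (SE 0.0141, from counting error and the spread of the low-Pcp2 libraries) for Fat2, 0.2763 for Gabra6, 0.3036 for Neurod1, 0.3267 for Cbln1, 0.3438 for Cbln3, 0.4033 for Barhl1, 0.4944 for Barhl2 and 0.6529 for Atoh1. The order did not follow stage throughout, since Neurod1 lay below Cbln1 and Cbln3, and the SE was 0.08142 for Barhl2 and 0.2632 for Atoh1. The ratio was computed only where the low-Pcp2 mean was under 50% of KO 1 and both excesses exceeded 2 SE, which left out Etv1 and 6 of the 12 Purkinje cell markers. Over the other 6 Purkinje cell genes it ran from 0.3029 for Skor2 to 0.727 for Ppp1r17, with Pcp2 at 0.5765 and Car8 at 0.4035. Gng13, a short gene among those left out, stood higher in KO 3 than in KO 1 without subtraction (ratio 1.153, 1.026 to 1.297). Exonic length varied with the ratio as well. Spearman's rho between length and ratio was -0.5476 over the 8 granule cell genes, -0.3214 without Atoh1, and -0.8286 over 6 Purkinje cell genes. These are descriptions across genes that share the same libraries. Over all genes the median of KO 3 over KO 1 went from 1.107 in the fifth of genes with the shortest exonic length to 0.8496 in the fifth with the longest, whereas KO 1 over WT 1 stayed between 1.002 and 1.016. The part of length, stage or region in the order of the granule cell genes was not tested.

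**Figure D3:**
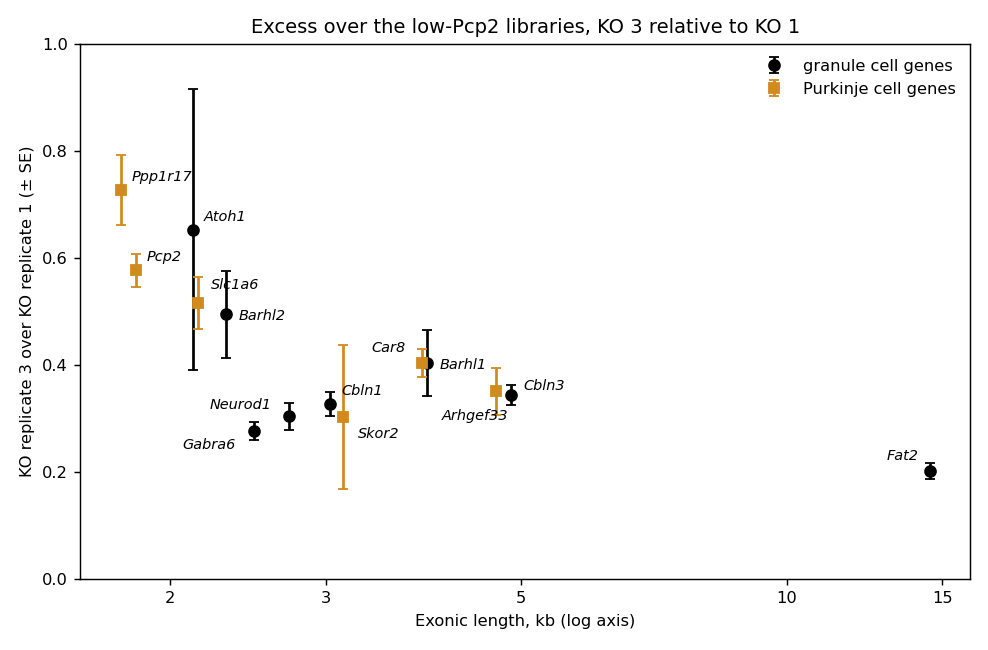
Ratio of KO 3 to KO 1 after subtraction of the low-Pcp2 mean, against exonic length in kb on a log axis, for granule cell genes and Purkinje cell genes, with SE from counting error and the spread of the low-Pcp2 libraries. Fat2, the longest, sits lowest at 0.2015, and Ppp1r17, a short Purkinje gene, highest at 0.727.

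Markers of Purkinje cells, of other cerebellar cells and of the hindbrain moved with the granule cell genes, and those of other regions did not all do so. The summed level of the 9 genes was 594, 111.7 and 100.8 CPM in WT and 650.1, 96.34 and 251.8 CPM in KO. The 12 Purkinje cell markers summed to 903.5, 397.4 and 415.9 CPM in WT and 947.5, 384.8 and 629.4 CPM in KO, and KO 3 held 66.43% of KO 1 for them against 38.73% for the granule cell genes. With the mean of the low-Pcp2 libraries subtracted (399.4 and 102.9 CPM), these shares were 41.97% and 27.21%. Both shares keep every gene of their list, also Etv1 and the Purkinje cell markers left out of the ratios above. The 8 markers of other cerebellar cells summed to 88.14, 16.83 and 18.47 CPM in WT and 104.5, 34.02 and 58.0 CPM in KO. The 17 hindbrain markers summed to 30.17, 0 and 0 CPM in WT and 45.79, 0 and 3.303 CPM in KO. All 17 were at 0 in each low-Pcp2 library, and in KO 3 5 of the 17 were at 0 and the sum was 7.213% of KO 1. Cortex and hippocampus markers summed to 1225, 1705 and 1609 CPM in WT and 1165, 1500 and 1407 CPM in KO, so they were lowest in WT 1 and KO 1. Of the cortex and hippocampus markers 8 were tested and 0 called by edgeR, with Tbr1 at a log2 fold change of -0.21 and Slc17a7 at -0.15. Markers of other cerebellar cells (8 tested, 0 called) were led by Eomes (1.37), Gdf10 (0.75) and Lhx5 (0.79), those of thalamus and midbrain (7 tested, 0 called) by Foxb1 (0.66), Lef1 (-0.19) and Gbx2 (0.32), and those of olfactory bulb (3 tested, 0 called) by Eomes, Doc2g (1.27) and Cdhr1 (0.90). Of the hindbrain markers only Hoxb5 entered the test (0.72). Unadjusted p was under 0.05 for 1 cortical, 1 other cerebellar, 0 thalamic and midbrain, 2 olfactory and 0 hindbrain markers, and DESeq2 called 1, 0, 0, 0 and 0 of them. Over all genes tested these shares were 9.67% and 1.89%. Olfactory bulb markers stood at 16.0 to 27.3 CPM in 5 libraries and at 71.95 CPM in KO 2. Thalamus and midbrain markers summed to 67.02, 62.99 and 61.85 CPM in WT and 63.42, 56.33 and 70.33 CPM in KO. The part of these regional differences in the genotype values of the granule cell genes was not tested.

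**Figure D4:**
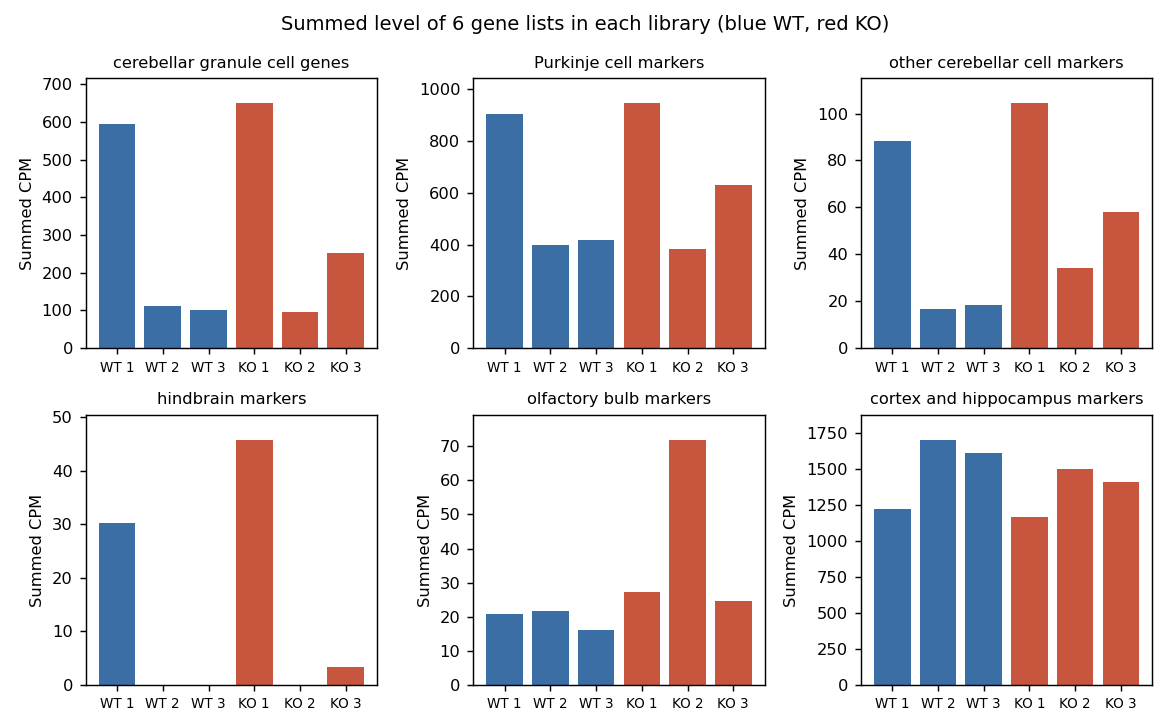
Summed CPM of the granule cell genes and of 5 marker lists for other cells and regions, with 1 bar per library, WT in blue and KO in red. Granule cell, Purkinje cell, other cerebellar and hindbrain sums are high in WT 1 and KO 1 and lowest in WT 2, WT 3 and KO 2, with KO 3 between.

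Other genes known from granule cells, most of them shared with other cell types, formed a further list. Of 16 such genes tested, 0 were higher and 1 was lower in KO by edgeR, while 3 had an unadjusted p under 0.05. DESeq2 called 3 (Sema6a, Grin2c and Calb2). Over all genes edgeR called 1.20%, 9.67% had an unadjusted p under 0.05 and DESeq2 called 1.89%. The gene called by edgeR was Sema6a, a transmembrane semaphorin of migrating granule cells that oligodendrocytes also express, which fell from 141.4, 112.1 and 106.9 CPM in WT to 88.72, 66.09 and 57.24 CPM in KO (log2 fold change -0.76, SE 0.16, edgeR adjusted p = 0.048). The call was lost without any 1 of the 5 libraries other than KO 1 (edgeR adjusted p from 0.0966 to 0.217), with limma (0.268) and with edgeR's robust spread (0.0885), and it held with DESeq2. With the replicate block, which called 3.41% of all genes, 7 of the 16 were called. These were Grin2c, Calb2, Pax6, Zic1 and Zic2, which were higher in KO, and Sema6a and Chn2, which were lower. With the Pcp2 term only Sema6a was called, and the adjusted p was 0.68 for Pax6, 0.76 for Zic1 and 0.81 for Zic2, which were highest in WT 1 and KO 1. Grin2c, the NMDA receptor subunit that granule cells gain as they mature and that astrocytes also use, stood at 55.40, 34.87 and 35.68 CPM in WT and 65.74, 69.37 and 59.27 CPM in KO. Its groups did not overlap, as was so for 16.0% of all genes tested. Its log2 fold change was 0.63 (SE 0.16, edgeR adjusted p = 0.151), and the adjusted p was 0.0139 with DESeq2 and 0.00149 with the block. KO 2, a library without Gabra6 reads, held the highest Grin2c value.

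Partners of the granule cell proteins came next. Of 14 other GABA-A receptor subunits, 0 were called by edgeR or DESeq2 and 2 had an unadjusted p under 0.05, as did 9.67% of all genes. The smallest p belonged to Gabra2 (log2 fold change -0.30) and Gabrq (0.46). Gabrd, which joins Gabra6 in extrasynaptic receptors and is also expressed in forebrain, stood at 37.17, 37.64 and 40.13 CPM in WT and 36.67, 44.67 and 44.03 CPM in KO, with no drop in the libraries that lacked Gabra6. Of 7 other cerebellins, receptors and neurexins, 0 were called by either tool and 0 had an unadjusted p under 0.05, and the smallest p belonged to Cbln4 (0.31), Grid1 (-0.14) and Nrxn2 (-0.09).

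The Sonic hedgehog pathway drives granule cell precursors, and 0 of its 13 tested genes were called by edgeR. Of the 13, 3 had an unadjusted p under 0.05 (Hhip, Gli1 and Ccnd1), as did 9.67% of all genes. DESeq2 called 1 of them, Hhip, and 1.89% of all genes. With the block, which called 3.41% of all genes, Gli1 and Hhip were called in opposite directions. Gli1 is a transcription factor and target of the pathway, and Hhip is a ligand trap. Hhip was also called with DESeq2 (adjusted p = 0.0063), the Pcp2 term in edgeR (0.048) and edgeR's robust spread (0.037). Gli1 was not called in these 3 fits (0.080, 0.198 and 0.151). Limma and the fits without 1 library at a time called neither. Gli1 stood at 5.122, 3.041 and 3.129 CPM in WT and 8.453, 7.498 and 5.463 CPM in KO (log2 fold change 0.92, SE 0.26, edgeR adjusted p = 0.204, and 0.014 with the block). Hhip stood at 11.87, 10 and 8.544 CPM in WT and 5.473, 6.049 and 4.447 CPM in KO (log2 fold change -0.93, SE 0.20, edgeR adjusted p = 0.053, and 0.004 with the block). Neither gene followed Gabra6 across the libraries. Among 8 tested proneural bHLH relatives and E proteins 0 were called by either tool and 1, Tcf3, had an unadjusted p under 0.05 (log2 fold change 0.25), followed by Neurod6 (-0.24) and Atoh8 (0.46). Among 7 relatives of Etv1 and Fat2 0 were called and 0 had an unadjusted p under 0.05, with Dchs1 at 0.18, Fat3 at -0.16 and Fjx1 at -0.10. Of the Purkinje cell markers 11 were tested, 0 were called by either tool and 0 had an unadjusted p under 0.05, with Slc1a6 at 0.66 and Calb1 at 0.23 on the log2 scale, or 174.6, 107.1 and 121.2 CPM in WT and 200.7, 107.9 and 163.6 CPM in KO.

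The genes whose pattern over the 6 libraries was nearest to Gabra6 were ranked by root mean square distance of centred log2(CPM + 1). The ranking covered 13591 genes averaging 1 CPM or more, after symbols of predicted genes, unnamed clones and microRNAs were left out. Fat2 (distance 0.2777) and Cbln3 (0.2794) ranked 1 and 2. Outside the 9 genes the nearest were Pcp2 (0.9785), Cnpy1 (1.043), Ppp1r17 (1.186), Slc6a4 (1.223), En2 (1.246), Mybpc3 (1.281), Arhgef33 (1.355), Car8 (1.621), Uncx (1.762) and Tph2 (1.789). Pcp2, Ppp1r17 and Car8 are Purkinje cell genes, and En2 and Cnpy1 are genes of the midbrain and hindbrain boundary. En2 was also in the list of other genes known from granule cells. Slc6a4, the serotonin transporter, and Tph2, the serotonin synthesis enzyme, are genes of raphe neurons of the brainstem. Slc6a4 stood at 14.3, 0.2703 and 0.6017 CPM in WT and 13.74, 0 and 7.369 CPM in KO. Barhl1 ranked 10, Neurod1 12, Barhl2 13 and Cbln1 17, while Etv1 ranked 1423.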

How the data were processed

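Polyadenylated RNA was sequenced in 3 WT and 3 KO samples of mouse brain. The build was mm10, and the tools listed in the submitters' processing notes are STAR 2.3.0e, featureCounts 1.5.0, DESeq2, Trimmomatic 0.32 and FastQC 0.11.2. The deposited files hold gene counts in whole numbers, and the authors' normalized signal, which equals the count divided by 1 DESeq2 size factor per library, to within 4.9e-10. Strand setting and the handling of multi-mapping reads are not given in the sources used here.

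From the deposited counts, CPM and tests were computed in R 4.3.3 with edgeR 4.0.16 (filterByExpr, TMM, glmQLFit and glmQLFTest, 4 residual degrees of freedom), with DESeq2 1.42.0 and limma 3.58.1 (log2 of signal plus 1) as alternatives. The pipeline was tested on simulated data. Exonic lengths and positions come from GENCODE M21 on mm10 and promoters from RefSeq. Chi-square per gene between libraries of a group was 6.75 to 27.41, so none was treated as a duplicate. Same-numbered samples correlated at 0.407, 0.367 and 0.219 in their deviations from the group means. The replicate number was therefore fitted as a block in an alternative fit, a choice made on the data because the labels do not say what a number marks. The main fit, which had the 4 residual degrees of freedom, and the permutation tests used no pairing.

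The 9 genes and all marker lists were chosen with earlier results of these data known. The text names all 9, of each list the genes past the test or else those of smallest p, Grin2c, Gabrd, Pcp2 and Calb1, and the 10 genes nearest to Gabra6. A few genes that this rule names are not reported here. Counting intervals cover counting error only, since reads carried no molecular identifiers.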

Additional observations from a re-analysis of the deposited data

How the results depend on the processing

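None of the 8 tested granule cell genes was called under other scaling, no filter, DESeq2, limma, the replicate block, the Pcp2 term or any left-out library. The number of genes called over the whole table was 199 in the plain fit, 313 with DESeq2, 68 with limma, 566 with the replicate block, 1254 among the low-Pcp2 libraries and 100 to 305 without 1 library at a time. Among the high-Pcp2 libraries, where WT is a single library, 1 granule cell gene, Fat2, was called. The log2 fold changes of Gabra6, Cbln3 and Fat2 were 1.70, 1.37 and 1.17 with the replicate block and 2.92, 2.36 and 2.39 with limma, against 0.68, 0.25 and 0.17 in the plain fit. With the Pcp2 term the log2 fold change turned to -0.32 for Gabra6, -0.0456 for Cbln1, -0.61 for Cbln3, -0.26 for Barhl1, -0.44 for Barhl2, -0.38 for Neurod1 and -0.81 for Fat2. Among the high-Pcp2 libraries it turned to -0.33 for Gabra6, -0.21 for Cbln1, -0.75 for Cbln3, -0.23 for Barhl1, -0.61 for Barhl2, -0.33 for Neurod1 and -0.84 for Fat2. Among the low-Pcp2 libraries it turned to -0.35 for Barhl1, -0.024 for Barhl2 and -0.46 for Neurod1. Without 1 library at a time it ran from -0.95 to 12.08 for Gabra6, -0.31 to 1.71 for Cbln1, -1.09 to 6.41 for Cbln3, -0.40 to 2.79 for Barhl1, -0.52 to 2.50 for Barhl2, -0.62 to 1.75 for Neurod1, -1.81 to 7.86 for Fat2 and -0.40 to 0.0375 for Etv1. The upper ends came without WT 1, the only high-Pcp2 library of its group, except for Etv1, where it came without KO 3. The lower ends came without KO 1. The 12.08 of Gabra6 depends on the prior count, since both remaining WT libraries hold 0 reads. For Sema6a, Grin2c, Gli1 and Hhip, checked after the data were seen, the direction held in every setting. The cause of these shifts was not tested.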
